A study of Danio rerio with 18 samples.

Results

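The genes described here are the Wnt pathway genes of the zebrafish embryo, taken by name: every gene entry whose symbol begins with wnt and a digit, fzd, lrp5, lrp6, dvl, axin, ctnnb, lef1, tcf7, dkk or sfrp. The rule found 68 entries among the 32521 of the count files, 29201 of which have a symbol. They are 26 Wnt ligands, 14 Frizzled receptors, 2 LRP co-receptors, 5 Dishevelled genes, 2 Axin genes, 4 ctnnb entries, 5 TCF/LEF genes, 5 Dickkopf genes and 5 secreted Frizzled-related genes. In 10 cases 2 entries carry the same symbol in the name table, since zebrafish kept many genes in 2 copies. Those 20 entries are named by the symbol and the last 5 digits of their Ensembl identifier, so that fzd7-27589 is ENSDARG00000027589 and fzd7-60004 is ENSDARG00000060004, and no a or b name was assigned to them.

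RNA was sequenced from embryos of Tg(ddx4:ddx4-EGFP) females, which lay EGFP transcripts into the egg from the germ-line promoter of ddx4, and casper males. At the 1-cell stage the yolk was injected either with StCsm(EGFP), a purified type III-A CRISPR ribonucleoprotein complex of Streptococcus thermophilus programmed against the EGFP transcript and carrying a Cas10 subunit without DNase activity (0.7 ng in 1 nL), or with the storage buffer alone (mock). Pools of 25 embryos were harvested during cleavage (128-cell stage), in the late blastula (5 hpf, hours post fertilization) or with the body axis formed (24 hpf), in 3 independent injection experiments (batches 1 to 3, each with both injections), which gives 18 libraries, 3 for each of the 6 conditions. Batches are numbered here by the replicate number of the labels, which do not state that equal numbers share an experiment. All embryos, mock included, came from transgenic mothers and were injected, so no uninjected embryo is part of the comparison.

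Wnt ligands bind Frizzled receptors together with the co-receptors Lrp5 and Lrp6, and Dishevelled passes the signal on to a complex built on Axin that otherwise marks β-catenin for destruction. Stabilised β-catenin then enters the nucleus and acts with TCF/LEF factors on target genes, whereas other ligands, among them zebrafish Wnt11f2 and Wnt5b, steer cell movements in gastrulation without β-catenin. Dickkopf proteins block the co-receptors and secreted Frizzled-related proteins bind the ligands. In zebrafish, β-catenin supplied by the mother sets up the dorsal side before the embryo's own transcription begins, and zygotic ligands such as Wnt8a later pattern the ventrolateral margin.

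The libraries held 11763787 to 21092691 reads assigned to genes, of which the 68 entries took 0.155 to 0.374%. Levels are given as CPM, the usual read counts scaled to a common library size, here with TMM factors over the 18 libraries, and they are compared between conditions for 1 gene at a time and never between genes, because they are not divided by transcript length. EGFP, the targeted transcript, was lower in StCsm embryos at the 128-cell stage (log2 fold change -0.44, SE 0.08, adjusted p = 0.0186). At 5 hpf its difference (-0.57, SE 0.19, adjusted p = 1.0) did not pass the adjustment over all genes. EGFP was lower there in each batch, with 62.3, 110.7 and 79.4 CPM in StCsm against 110.2, 144.5 and 111.0 CPM in mock embryos. The unadjusted p of edgeR's quasi-likelihood test was 0.0144, and the paper's likelihood ratio test of EGFP alone found a significant reduction at 5 hpf. At 24 hpf, with 12 to 36 reads per library, the difference (0.36, SE 0.34, adjusted p = 0.98) did not pass, and the paper calls the reads there too few to compare. Summed markers followed the stage labels: 8 maternal genes lay at 5.17 to 11.7 CPM in StCsm and 8.38 to 16.1 CPM in mock embryos at 24 hpf, against 2474 to 3732 CPM and 2981 to 3798 CPM at the 128-cell stage, and 10 muscle entries lay between 13840 and 19500 CPM at 24 hpf, against 4.57 to 39.2 CPM at the 128-cell stage. One library stands apart, StCsm 24 hpf replicate 2, with the highest share of reads outside genes (17.9%) and the most genes with reads (25299). It is named below for some entries only. Without being named it also gives the highest 24 hpf value of lrp5 (101.7 CPM, at most 74.45 CPM in the other libraries), wnt16 (17.92 against 12.73) and dvl2 (57.54 against 40.39), among others. It likewise gives the lowest 24 hpf value of entries such as sfrp5, tcf7l2 and fzd10.

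Of the 68 entries, 56 passed the filter on low counts over the 18 libraries and were tested between stages. The 12 others were dkk2, wnt2b, wnt2ba, wnt3a, wnt6, wnt6a, wnt7a-02483, both wnt8a entries, wnt9a, wnt9b and wnt10a, none with more than 36 reads in a library. An entry with reads at only 1 stage entered the test through the stage where it was high, so the counts below describe the family and are no measure of its own. Both wnt8a entries (ENSDARG00000052910 and ENSDARG00000078507) had 0 reads in all 18 libraries, although Wnt8a is a textbook ligand of the early zebrafish embryo. In the RefSeq gene table of another assembly, wnt8a and wnt8-2 are given the same span, and 0.669 to 1.70% of the reads in these libraries were set aside as ambiguous between genes; whether this bears on the 0 was not tested, and nothing is read here about Wnt8a.

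**Figure D1:**
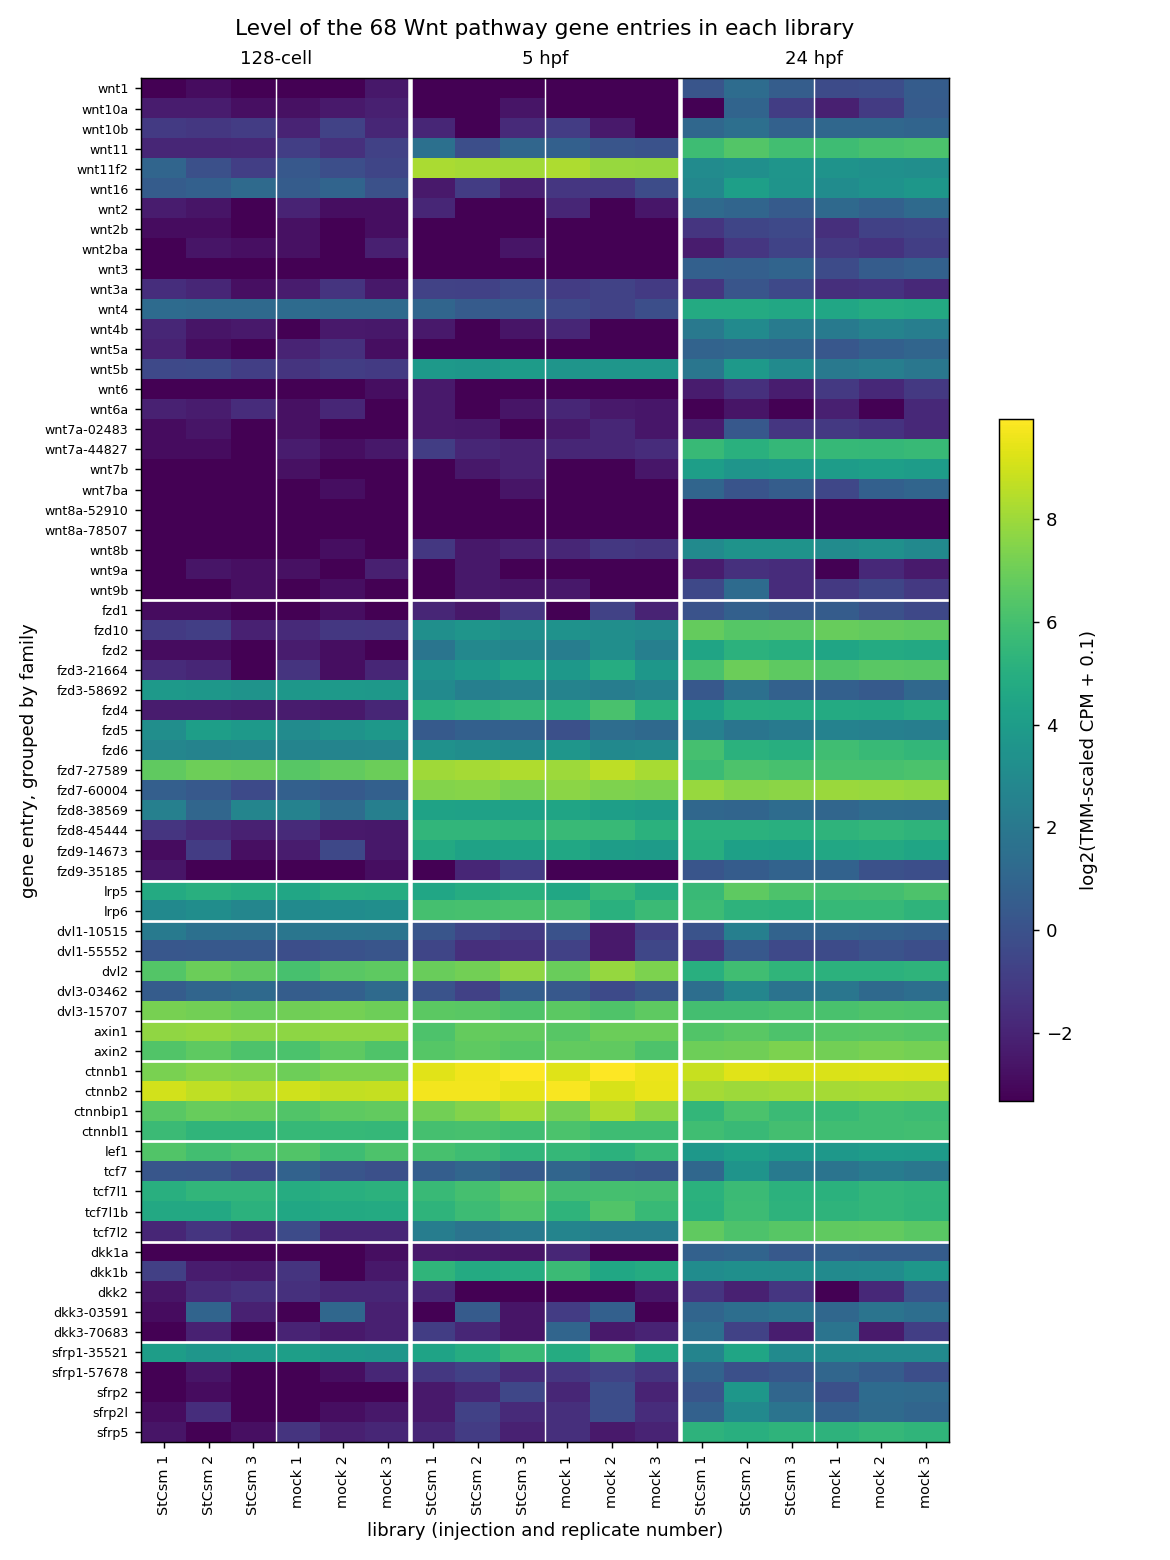
Each row is 1 of the 68 gene entries, grouped from top to bottom as ligands, Frizzled receptors, co-receptors, Dishevelled, Axin, ctnnb, TCF/LEF, Dickkopf and secreted Frizzled-related genes, and each column is 1 of the 18 libraries. Colour gives log2(CPM + 0.1), so the darkest cells hold no reads. The blocks differ by stage far more than by injection, and most ligand rows are dark until 24 hpf.

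Between stages, more of the tested entries were called higher than lower at the later stage, except where at least 10 counts were required in every library (4 higher and 9 lower at 24 hpf against 5 hpf, in StCsm and in mock embryos alike). Of the 10767 genes tested with that minimum, 2679 were higher and 2410 lower in mock embryos, and 2723 and 2286 in StCsm embryos. In mock embryos, 25 of the 56 tested entries were higher and 7 lower at 5 hpf than at the 128-cell stage, with an adjusted p under 0.1 and a change of at least 2-fold, where 28.5% of all 20231 tested genes were higher and 24.9% lower. At 24 hpf against 5 hpf, 32 were higher and 11 lower, with 33.5% and 29.5% of all genes. At 24 hpf against the 128-cell stage, 38 were higher and 6 lower, with 41.1% and 30.0% of all genes. The median log2 fold change of the tested entries was 0.96, 1.54 and 3.41 in these 3 comparisons, and that of all tested genes was 0.0014, 0.034 and 0.30.

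The split between higher and lower depends on the scaling, since the TMM factors differed by stage. With library totals alone, the median of all genes moved to -0.61, -0.34 and -0.71 in the 3 comparisons, and the share of higher among all calls moved to 35.0%, 44.1% and 41.3%, against 53.4%, 53.2% and 57.8% with TMM. The entries then counted 19 higher and 11 lower at 5 hpf against the 128-cell stage (all genes 20.9% and 38.7%), 30 and 13 at 24 hpf against 5 hpf (28.9% and 36.7%), and 35 and 13 at 24 hpf against the 128-cell stage (32.1% and 45.7%). Entries called higher outnumbered those called lower under both scalings in each comparison, though not with at least 10 counts in every library at 24 hpf against 5 hpf. In RNA of whole embryos, a change in the level of a gene and a change in the share of cells that express it cannot be told apart. The RNA was selected by its poly(A) tail, so a change in its amount and a change in its capture cannot be told apart either.

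StCsm embryos went through the same stages with 27 entries higher and 6 lower at 5 hpf against the 128-cell stage (all genes 30.5% and 25.8%), 32 and 10 at 24 hpf against 5 hpf (34.0% and 27.9%), and 39 and 6 at 24 hpf against the 128-cell stage (41.6% and 29.3%). With StCsm 24 hpf replicate 2 left out, the last of these counts became 10 lower, beside 6163 of 20595 genes. Stage changes below are those of mock embryos unless StCsm is named, and levels are given over the 6 libraries of a stage, both injections together, as lowest, median and highest.

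Of the 26 ligands, 15 were tested. In mock embryos 4 were higher at 5 hpf than at the 128-cell stage (wnt11f2, wnt5b, wnt11 and wnt8b) and 3 were lower (wnt4, wnt16 and wnt5a), beside 28.5% and 24.9% of all genes. The call of wnt8b rests on only 10 reads at 5 hpf against 1 at the 128-cell stage. That of wnt5a rests on 10 reads at the 128-cell stage (mean 0.150 CPM) against 0 at 5 hpf. There 3 reads per library would be 0.244 CPM, above that mean, so the size of this fall cannot be told. In StCsm embryos 6 were higher and 1 lower, beside 30.5% and 25.8%. At 24 hpf 13 of the 15 were higher than at 5 hpf in mock embryos, and the other two, wnt11f2 and wnt5b, were lower, beside 33.5% and 29.5% of all genes. All 15 were higher at 24 hpf than at the 128-cell stage, as were 41.1% of all genes. Whether one family of the pathway differed from another in its changes was not tested.

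wnt11f2 (ENSDARG00000004256, the silberblick ligand that zebrafish need for convergent extension) lay at 0.452, 0.831 and 1.87 CPM at the 128-cell stage, at 225.5, 279 and 312 CPM at 5 hpf, and at 8.32, 9.74 and 11.8 CPM at 24 hpf. No library of 1 stage overlapped with another stage. The log2 fold change was 8.24 (SE 0.29, adjusted p = 5.95e-15) at 5 hpf against the 128-cell stage and -4.66 (SE 0.24, adjusted p = 1.41e-12) at 24 hpf against 5 hpf. wnt5b (ENSDARG00000102464, the pipetail ligand of tail and cartilage cell movements) followed the same course with a smaller range, at 0.303, 0.440 and 0.681 CPM, then 11.9, 12.6 and 15.3 CPM, then 3.54, 4.46 and 13.6 CPM. Its highest 24 hpf value is that of StCsm replicate 2 and overlaps with 5 hpf, while the other 24 hpf libraries stayed at or below 7.95 CPM.

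Most other ligands were low at 5 hpf and reached their highest levels at 24 hpf. wnt11 (ENSDARG00000014796), a second wnt11-family ligand, lay at 0.170, 0.218 and 0.496 CPM at the 128-cell stage, at 0.822, 1.31 and 2.89 CPM at 5 hpf, and at 55.7, 64.5 and 83.5 CPM at 24 hpf. The 2 wnt11-family genes therefore had opposite courses between 5 hpf and 24 hpf: log2 fold changes of 5.80 (SE 0.33) for wnt11 and -4.66 (SE 0.24) for wnt11f2.

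wnt7a-44827 (ENSDARG00000044827) lay at 34.3, 46.1 and 49.4 CPM at 24 hpf, against 0.134, 0.170 and 0.424 CPM at 5 hpf (log2 fold change 7.91, SE 0.31, adjusted p = 4.24e-14). wnt7b had 470 reads in StCsm and 489 in mock embryos at 24 hpf, against 0 in StCsm and 1 in mock embryos at the 128-cell stage. In StCsm embryos that is at least 125-fold higher than 3 reads per library at the 128-cell stage. Wnt7a and Wnt7b are known from the mouse as ligands of the developing nervous system. wnt8b, a ligand of the forebrain and midbrain, reached 7.78, 9.15 and 11.0 CPM at 24 hpf, against 0.0822, 0.233 and 0.346 CPM at 5 hpf.

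wnt4 and wnt16 had a dip at 5 hpf. For wnt4 the mean went from 2.28 to 0.669 CPM in mock embryos. In StCsm embryos it went from 2.27 to 1.46 CPM, under 2-fold. wnt4 (ENSDARG00000071208) lay at 2.22, 2.24 and 2.38 CPM at the 128-cell stage, at 0.519, 1.01 and 1.87 CPM at 5 hpf and at 23.2, 26.6 and 28.7 CPM at 24 hpf, with log2 fold changes of -1.74 (SE 0.27, adjusted p = 1.34e-05) and 5.25 (SE 0.26, adjusted p = 7.62e-13). wnt16 (ENSDARG00000094973), which zebrafish use in the somites for blood stem cell formation, lay at 0.869, 1.46 and 2.26 CPM, then at 0.0849, 0.339 and 0.749 CPM, then at 6.87, 11.2 and 17.9 CPM. In both genes no library at 5 hpf reached any library at the 128-cell stage, so poly(A)-selected RNA was present in the cleaving embryo and lower at 5 hpf. wnt5a had 5 reads in StCsm and 10 reads in mock embryos at the 128-cell stage, 0 reads in all 6 libraries at 5 hpf, and 64 and 46 reads at 24 hpf, which for mock embryos is at least 6.22-fold above the level of 3 reads per library at 5 hpf. wnt3 had 55 reads in StCsm and 38 in mock embryos at 24 hpf, in mock embryos at least 5.09-fold above that level, and 0 reads in all libraries of the earlier stages.

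All 14 Frizzled receptors, the membrane proteins that ligands bind, were tested. Against the 128-cell stage, 10 were higher and 2 lower at 5 hpf (28.5% and 24.9% of all genes), and 7 were higher and 3 lower at 24 hpf against 5 hpf (33.5% and 29.5%). fzd4 (ENSDARG00000104117) had only 8 reads in each injection group at the 128-cell stage (0.0853, 0.102 and 0.166 CPM), 34.0, 37.1 and 70.6 CPM at 5 hpf and 18.3, 28.2 and 30.5 CPM at 24 hpf. Its log2 fold changes were 8.51 (SE 0.36, adjusted p = 7.71e-14) and -0.70 (SE 0.22, adjusted p = 0.00606), the second of which became -0.36 (adjusted p = 0.109) without mock 5 hpf replicate 2. fzd10 (ENSDARG00000068213) rose in both intervals, with 0.136, 0.336 and 0.442 CPM at the 128-cell stage, 8.39, 9.51 and 11.8 CPM at 5 hpf and 86.0, 103.1 and 114 CPM at 24 hpf.

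**Figure D2:**
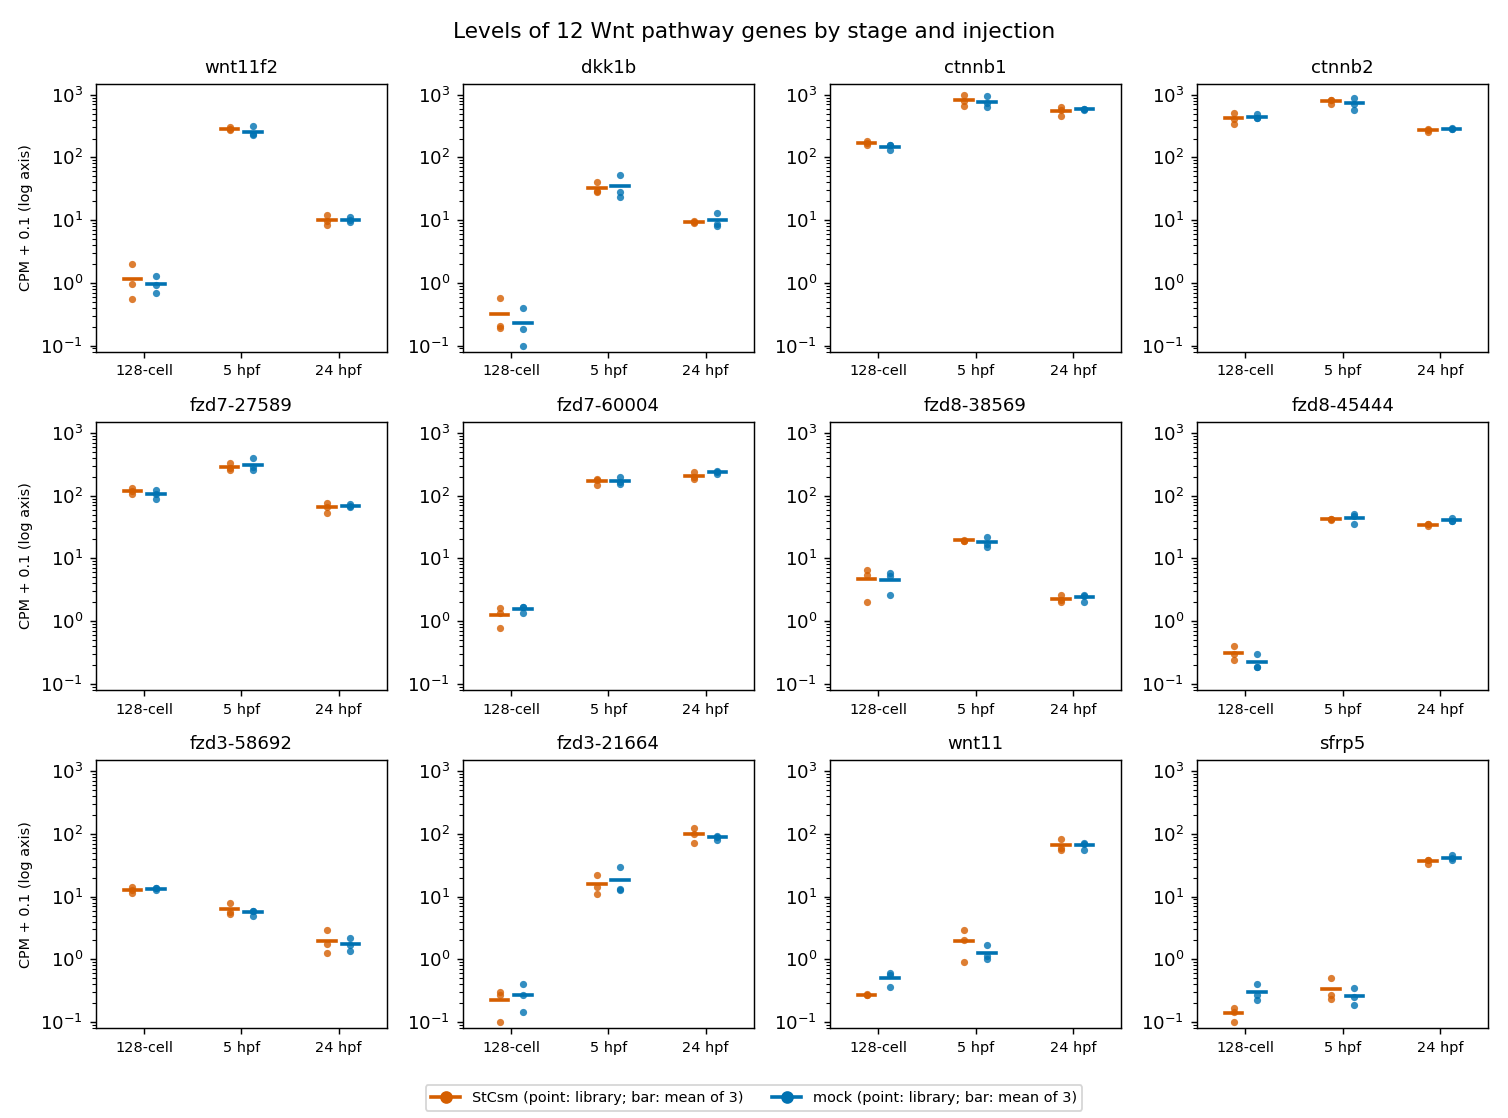
CPM + 0.1 on a log axis for 12 genes at each of the 3 stages; points are libraries, StCsm to the left of mock, and bars are means of 3 libraries. wnt11f2 and dkk1b peak at 5 hpf, wnt11 and sfrp5 appear by 24 hpf, and the entries of the fzd3, fzd7 and fzd8 pairs each follow their own course over the stages.

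The entries of the fzd3, fzd7 and fzd8 pairs are given side by side. fzd7-27589 lay at 89.0, 114 and 131 CPM at the 128-cell stage, at 258, 285 and 391 CPM at 5 hpf and at 52.0, 67.6 and 75.2 CPM at 24 hpf. fzd7-60004 lay at 0.679, 1.39 and 1.57 CPM, then at 148, 171 and 195 CPM, then at 185, 228 and 248 CPM. Fzd7 receptors serve gastrulation movements in zebrafish. The log2 fold changes at 5 hpf against the 128-cell stage were 1.56 (SE 0.14) for fzd7-27589 and 6.87 (SE 0.19) for fzd7-60004, and at 24 hpf against 5 hpf they were -2.16 (SE 0.14) and 0.46 (SE 0.14), all 4 with an adjusted p of 0.0055 or less. The difference between the copies was not tested as such. With library totals the last of the 4 values was 0.077 and no longer passed.

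fzd8-38569 (ENSDARG00000038569) lay at 1.94, 5.22 and 6.33 CPM at the 128-cell stage, at 15.2, 19.0 and 21.6 CPM at 5 hpf and at 1.90, 2.23 and 2.51 CPM at 24 hpf. fzd8-45444 (ENSDARG00000045444) lay at 0.0827, 0.169 and 0.307 CPM, then at 35.6, 42.4 and 50.0 CPM, then at 32.8, 37.3 and 44.4 CPM. So both copies rose by 5 hpf (log2 fold changes 2.06, SE 0.30, and 8.44, SE 0.27), and fzd8-38569 fell by 24 hpf (-2.95, SE 0.34, adjusted p = 1.68e-07), where the change of fzd8-45444 did not pass (-0.10, SE 0.16, adjusted p = 0.553). The fzd3 pair ran in opposite directions throughout. fzd3-58692 (ENSDARG00000058692) fell in both intervals, with 11.3, 13.1 and 14.0 CPM, then 4.75, 5.74 and 7.89 CPM, then 1.15, 1.61 and 2.88 CPM, and fzd3-21664 (ENSDARG00000021664) rose in both, with at most 0.303 CPM at the 128-cell stage, then 10.8, 13.6 and 29.3 CPM, then 70.9, 91.8 and 122 CPM.

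fzd5 (ENSDARG00000025420), a receptor of the developing eye field, was the other Frizzled gene that fell at 5 hpf. It lay at 8.39, 12.1 and 17.4 CPM at the 128-cell stage, at 0.831, 1.58 and 2.59 CPM at 5 hpf and at 3.40, 5.13 and 5.83 CPM at 24 hpf, with log2 fold changes of -2.56 (SE 0.32, adjusted p = 7.79e-07) and 1.55 (SE 0.34, adjusted p = 0.000341).

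The co-receptors rose in different intervals. lrp6 (ENSDARG00000100143) lay at 6.65, 8.36 and 9.35 CPM at the 128-cell stage, at 34.5, 64.5 and 70.8 CPM at 5 hpf and at 35.0, 42.8 and 54.7 CPM at 24 hpf, so that its rise fell between the 128-cell stage and 5 hpf (log2 fold change 2.51, SE 0.21, adjusted p = 2.22e-09). lrp5 (ENSDARG00000006921) lay at 23.2, 28.9 and 33.4 CPM, then at 22.8, 29.1 and 47.4 CPM, then at 50.3, 68.2 and 101.7 CPM, and it passed between 5 hpf and 24 hpf (1.03, SE 0.19, adjusted p = 5.84e-05). That value lies close to the 2-fold minimum and depends on the scaling. Of assigned reads at 5 hpf, mock batches 1 to 3 had 287 of 14353272, 548 of 12034028 and 387 of 13272791. At 24 hpf they had 501 of 11763787, 648 of 14056683 and 813 of 15277759.

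RNA for the cytoplasmic part of the pathway was present before zygotic transcription, and protein was not measured. dvl2 (ENSDARG00000056184) and dvl3-15707 (ENSDARG00000015707), Dishevelled adaptors, lay at 67.0, 97.3 and 122 CPM and at 116.5, 138 and 150.3 CPM at the 128-cell stage. dvl2 lay at 118, 149 and 231 CPM at 5 hpf and at 32.8, 38.2 and 57.5 CPM at 24 hpf, with log2 fold changes of 0.96 (SE 0.18) and -2.14 (SE 0.19, adjusted p = 5.78e-09). With library totals the first was 0.32 and did not pass. dvl3-15707 lay at 76.6, 93.9 and 100.2 CPM and then at 63.1, 69.7 and 77.8 CPM. Its changes of -0.58 (SE 0.13) and -0.30 (SE 0.13) stayed under 2-fold on the TMM scale. The first was larger by assigned reads: mock embryos of batch 1 had 2676 of 13736898 at the 128-cell stage and 1157 of 14353272 at 5 hpf. dvl1-10515 (ENSDARG00000010515), another Dishevelled entry, lay at 2.76, 3.40 and 4.23 CPM, then at 0.0864, 0.512 and 1.02 CPM, then at 0.936, 1.69 and 5.23 CPM, with log2 fold changes of -2.83 (SE 0.56, adjusted p = 0.00016) and 1.74 (SE 0.62, adjusted p = 0.0159). Its highest 24 hpf value is that of StCsm replicate 2, and the other 5 libraries lay at or below 1.82 CPM.

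Axin1 and Axin2 are scaffolds of the destruction complex, and axin2 is itself a widely used target of β-catenin. axin1 (ENSDARG00000102964) lay at 199.8, 212 and 226 CPM at the 128-cell stage, at 74.7, 111 and 124 CPM at 5 hpf and at 75.0, 84.0 and 93.1 CPM at 24 hpf (log2 fold changes -0.92, SE 0.14, and -0.36, SE 0.14). axin2 (ENSDARG00000100149) lay at 71.3, 78.7 and 99.7 CPM, then at 75.4, 94.0 and 108 CPM, then at 128, 139 and 157 CPM (0.21, SE 0.14, adjusted p = 0.207, and 0.60, SE 0.14, adjusted p = 0.000966). On the TMM scale axin1 was highest before the embryo's own transcription and axin2 at 24 hpf. Those libraries did not overlap with the other stages in either gene. In mock embryos no change of either reached 2-fold between neighbouring stages on the TMM scale. In StCsm embryos axin1 passed the 2-fold rule, with a mean of 213 CPM at the 128-cell stage and 99.1 CPM at 5 hpf. The fall of axin1 was larger by assigned reads. Mock embryos of batch 1 had 4098 of 13736898 at the 128-cell stage and 1066 of 14353272 at 5 hpf. The place of axin2 depends on the scaling: mock embryos of batch 2 had 2313 of 16053068 assigned reads at the 128-cell stage and 1575 of 14056683 at 24 hpf. The second value of axin1 became -0.29 (adjusted p = 0.101) without mock 5 hpf replicate 3. The value of axin2 at 24 hpf against 5 hpf did not pass with library totals (0.22, adjusted p = 0.145).

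Zebrafish has a pair of β-catenin genes, and ctnnb2 is the one whose maternal product sets up the dorsal organizer. ctnnb2 (ENSDARG00000023472) lay at 346, 424 and 513 CPM at the 128-cell stage, at 560, 769 and 895 CPM at 5 hpf and at 252, 283 and 294 CPM at 24 hpf. ctnnb1 (ENSDARG00000014571) lay at 129.7, 158 and 184 CPM, then at 629, 774 and 978 CPM, then at 452, 577 and 646 CPM. The log2 fold change at 5 hpf against the 128-cell stage was 0.68 (SE 0.14) for ctnnb2 and 2.38 (SE 0.15) for ctnnb1, and at 24 hpf against 5 hpf it was -1.32 (SE 0.15) and -0.40 (SE 0.14), all with an adjusted p of 0.014 or less. With library totals the first value of ctnnb2 was 0.047 and did not pass, and without batch 2 the second of ctnnb1 was -0.24 (adjusted p = 0.179). ctnnbip1, which encodes an inhibitor that keeps β-catenin from TCF, lay at 80.3, 103 and 117 CPM, then at 136, 192 and 331 CPM, then at 43.0, 52.9 and 72.6 CPM. ctnnbl1 matches the name rule but encodes a splicing-associated protein, and its changes stayed under 2-fold.

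Of the TCF/LEF factors, lef1 fell and tcf7l2 rose. lef1 (ENSDARG00000031894), an activator, lay at 55.4, 73.5 and 80.7 CPM at the 128-cell stage, at 36.2, 47.7 and 68.0 CPM at 5 hpf and at 13.2, 14.5 and 18.1 CPM at 24 hpf (log2 fold changes -0.68, SE 0.19, and -1.54, SE 0.20, adjusted p = 1.17e-06). tcf7l2 (ENSDARG00000004415) lay at 0.166, 0.176 and 0.708 CPM, then at 3.37, 4.88 and 6.23 CPM, then at 75.3, 97.6 and 106 CPM (4.01, SE 0.32, and 4.22, SE 0.23). tcf7l1 and tcf7l1b encode factors of the repressor type that head formation needs. tcf7l1 lay at 29.3, 34.6 and 42.7 CPM, then at 50.5, 63.6 and 92.7 CPM, then at 35.3, 38.8 and 52.7 CPM, and tcf7l1b at 23.4, 26.0 and 35.9 CPM, then at 39.8, 51.4 and 79.8 CPM, then at 32.4, 39.1 and 53.8 CPM. Both had their highest median at 5 hpf (0.95, SE 0.17, and 1.11, SE 0.21, at 5 hpf against the 128-cell stage), though the value of tcf7l1 with library totals was 0.31 and did not pass. The value of tcf7l1b at 24 hpf against 5 hpf (-0.43, SE 0.21, adjusted p = 0.0684) became -0.15 (adjusted p = 0.507) without mock 5 hpf replicate 2. tcf7 (ENSDARG00000038672) lay at 0.679, 1.02 and 1.67 CPM, then at 1.05, 1.36 and 1.97 CPM, then at 2.08, 4.05 and 11.7 CPM, of which the highest is again StCsm 24 hpf replicate 2, with at most 4.63 CPM in the other 5 libraries. Its change of 0.26 (SE 0.46, adjusted p = 0.641) at 5 hpf did not pass, and that at 24 hpf against 5 hpf did (1.48, SE 0.45, adjusted p = 0.00585).

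Secreted inhibitors were present at different times. dkk1b (ENSDARG00000045219), the Dickkopf gene of the prechordal plate and head organizer, lay at 0, 0.0963 and 0.477 CPM at the 128-cell stage, at 23.3, 28.6 and 53.1 CPM at 5 hpf and at 7.89, 9.05 and 13.0 CPM at 24 hpf (log2 fold changes 8.05, SE 0.50, adjusted p = 3.35e-11, and -1.72, SE 0.32, adjusted p = 7.48e-05). sfrp1-35521 (ENSDARG00000035521) lay at 12.2, 13.6 and 17.2 CPM, then at 20.7, 29.2 and 59.2 CPM, then at 6.24, 8.01 and 22.4 CPM. Its highest value at 24 hpf is again that of StCsm replicate 2, and the other 5 libraries lay at or below 8.11 CPM. The change at 5 hpf was 1.34 (SE 0.38, adjusted p = 0.00494), and 0.68 with library totals, which did not pass. Its paralog sfrp1-57678 (ENSDARG00000057678) lay at 0, 0.0213 and 0.166 CPM, then at 0.201, 0.336 and 0.519 CPM, then at 0.824, 1.22 and 1.94 CPM (2.22, SE 0.81, adjusted p = 0.0202, and 1.78, SE 0.59, adjusted p = 0.00969). The first of these rests on 14 reads in mock embryos at 5 hpf against 5 at the 128-cell stage, and became 1.68 (adjusted p = 0.153) without batch 2. sfrp5 (ENSDARG00000039041) had at most 0.303 CPM at the 128-cell stage and 0.411 CPM at 5 hpf, and 32.6, 38.3 and 45.8 CPM at 24 hpf (7.94, SE 0.37, adjusted p = 4.08e-13 against 5 hpf). dkk1a had 0 reads in StCsm and 1 in mock embryos at the 128-cell stage, 3 and 2 reads at 5 hpf, and 55 and 41 reads at 24 hpf.

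By the stage of the highest median on the TMM scale, 55 entries reached a median of at least 1 CPM at some stage. Of these, 7 were highest at the 128-cell stage, 16 in the late blastula (5 hpf) and 32 at 24 hpf. The same count was not made over all genes, so these numbers show no trait particular to the entries. All 4 ctnnb entries were highest at 5 hpf on that scale, and 13 of the 15 ligands counted here at 24 hpf. For ctnnbl1 the peak depends on the scaling: mock embryos of batch 1 had 917 of 13736898 assigned reads at the 128-cell stage and 875 of 14353272 at 5 hpf. The 7 highest at the 128-cell stage were axin1, lef1, fzd5, fzd3-58692 and 3 Dishevelled entries, dvl3-15707, dvl1-10515 and dvl1-55552.

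Genes that act with the Wnt pathway but fall outside the name rule were followed in a list of components, of which 41 of 45 symbols were found and 39 entries tested. In mock embryos, 10 were higher and 9 lower at 5 hpf against the 128-cell stage, beside 28.5% and 24.9% of all genes, and 15 were higher and 11 lower at 24 hpf against 5 hpf, beside 33.5% and 29.5%. The ligand carrier wls had mean levels of 126 CPM at the 128-cell stage, 222 CPM at 5 hpf and 190.0 CPM at 24 hpf in mock embryos, and the maternal activator hwa (huluwa) had 8.04, 0.914 and 0.103 CPM. A further list held 16 genes known to lie downstream of maternal or zygotic Wnt signalling in the early zebrafish embryo. Several, gsc and tbxta among them, are also markers of early zygotic transcription. A rise by 5 hpf was thus largely set by the choice of the list, and its counts are no measure of Wnt signalling. Of these, 15 were higher and 1 lower at 5 hpf against the 128-cell stage (28.5% and 24.9% of all genes), and 1 was higher and 12 lower at 24 hpf against 5 hpf (33.5% and 29.5%). gsc had mean levels of 1.53, 79.8 and 0.687 CPM, sp5l 0.0306, 177 and 15.0 CPM and tbxta 0.180, 549 and 44.5 CPM. The single exception at 5 hpf was gbx2, with 1.31, 0.459 and 16.5 CPM.

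The second question of the design is whether StCsm(EGFP) itself changed the transcriptome. At the 128-cell stage 1 of 28 tested Wnt pathway entries passed, dvl2, beside 5.07% of all 15498 genes tested. dvl2 had 84.0, 122 and 104 CPM in StCsm embryos of batches 1, 2 and 3, against 67.0, 93.0 and 101.6 CPM in mock embryos of the same batches. The groups overlapped, StCsm was higher in all 3 batches, and the within-batch log2 differences were 0.32, 0.39 and 0.030. The fitted log2 fold change was 0.24 (SE 0.07, adjusted p = 0.0833), a level 18.5% higher in StCsm embryos.

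The call of dvl2 rests on the pairing of libraries by batch and on each of batches 1 and 2. Without the batch term the adjusted p was 0.987, without batch 1 it was 0.314 and without batch 2 it was 0.335. Without batch 3 it was 0.054. dvl2 also differed between batches at this stage more than between injections, from 67.0 to 101.6 CPM among the mock libraries.

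ctnnb1 came next, with 156, 184 and 172 CPM in StCsm embryos against 129.7, 158 and 158 CPM in mock embryos (log2 fold change 0.20, SE 0.06, adjusted p = 0.102). tcf7l1 had 32.9, 41.8 and 42.7 CPM in StCsm against 29.3, 32.6 and 36.2 CPM in mock embryos (0.25, SE 0.08, adjusted p = 0.125). Both were higher in StCsm embryos in all 3 batches, though the groups overlapped. In all, 6 of the 28 had an unadjusted p under 0.05, each higher in StCsm embryos (dvl2, ctnnb1, tcf7l1, ctnnbip1, fzd7-27589 and fzd5), where 18.7% of all genes had such a p in either direction. Those genes were not counted by direction. Among all genes with an adjusted p under 0.1, 351 were higher and 434 lower in StCsm embryos. The median log2 fold change of the 28 was 0.030 and that of all genes -0.00067.

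**Figure D3:**
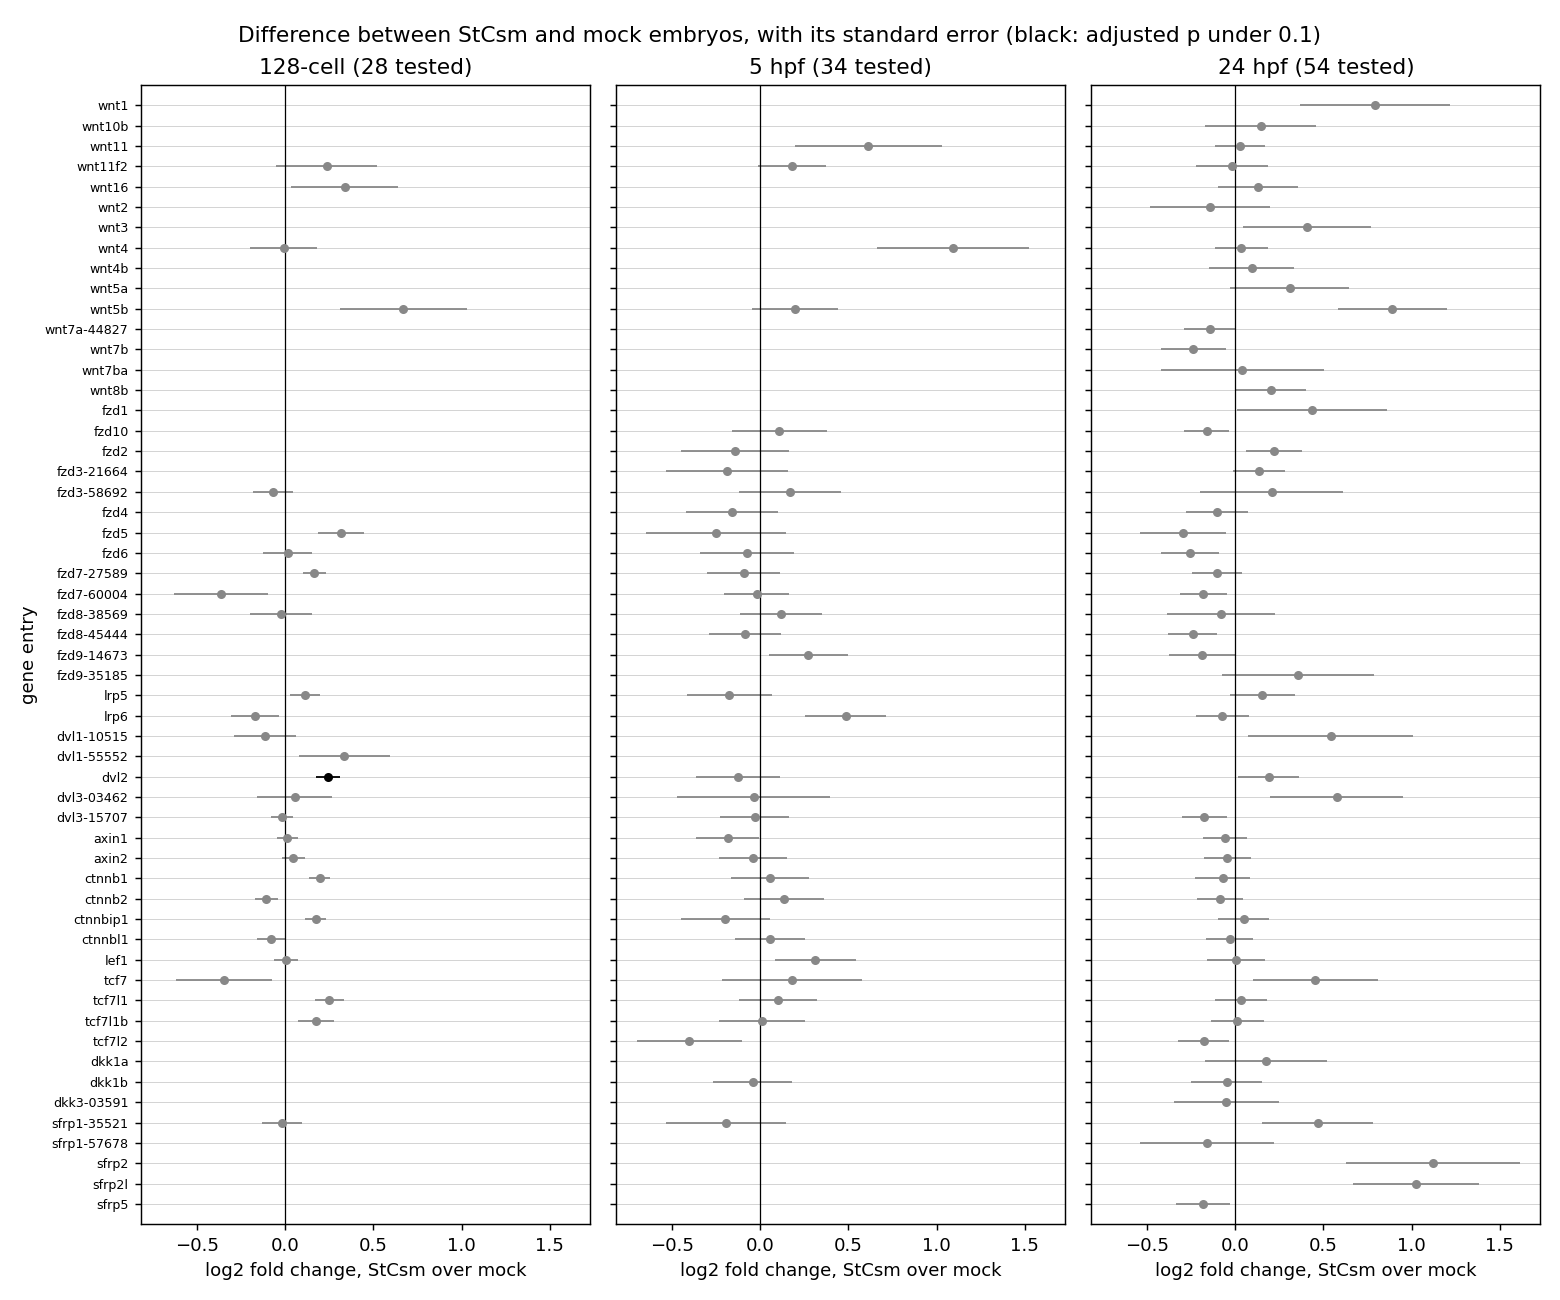
Log2 fold change of StCsm over mock with its standard error for each entry tested, with 28 entries in the panel of the 128-cell stage, 34 in that of 5 hpf and 54 in that of 24 hpf, from the edgeR fit with batch as a term. Black marks an adjusted p under 0.1, which dvl2 at the 128-cell stage alone reached; standard errors are widest for entries with few reads.

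At 5 hpf 0 of 34 tested entries passed in edgeR's quasi-likelihood test (0.0% of 15819 genes), and 0 passed in DESeq2. The only one with an unadjusted p under 0.05 was wnt4 (0.828% of all genes), with 1.87, 1.31 and 1.21 CPM in StCsm embryos against 0.665, 0.519 and 0.824 CPM in mock embryos (log2 fold change 1.09, SE 0.43, adjusted p = 1.0). These groups did not overlap, on 56 reads in StCsm and 25 reads in mock embryos. At 24 hpf 0 of 54 entries passed in edgeR (0.0% of 16986 genes), and 0 in DESeq2. The 3 with an unadjusted p under 0.05 (4.83% of all genes) were sfrp2, sfrp2l and wnt5b.

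All 3 were highest in StCsm 24 hpf replicate 2. sfrp2 had 1.04, 12.6 and 1.96 CPM in StCsm embryos against 0.850, 2.41 and 2.29 CPM in mock embryos, sfrp2l 1.66, 7.78 and 3.38 CPM against 1.58, 2.32 and 1.92 CPM, and wnt5b 3.54, 13.6 and 7.95 CPM against 4.01, 4.92 and 3.75 CPM. The log2 differences within batches 1, 2 and 3 were 0.26, 2.34 and -0.21 for sfrp2, 0.072, 1.71 and 0.78 for sfrp2l, and -0.17, 1.45 and 1.06 for wnt5b, so that sfrp2l was higher in StCsm embryos in all 3 batches and the other two in 2 of 3. In that library 34 of the 66 entries with reads at 24 hpf had their highest value and 11 their lowest. More than 2-fold above every other 24 hpf library lay 7 entries, where no other library of the series had more than 3 such entries against its own stage. They were sfrp2, wnt9b, wnt7a-02483, sfrp2l, dvl1-10515, tcf7 and sfrp1-35521. These counts were not made over all genes, so they show nothing particular to the Wnt pathway entries. The part of the higher share of reads outside genes in this was not tested.

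**Figure D4:**
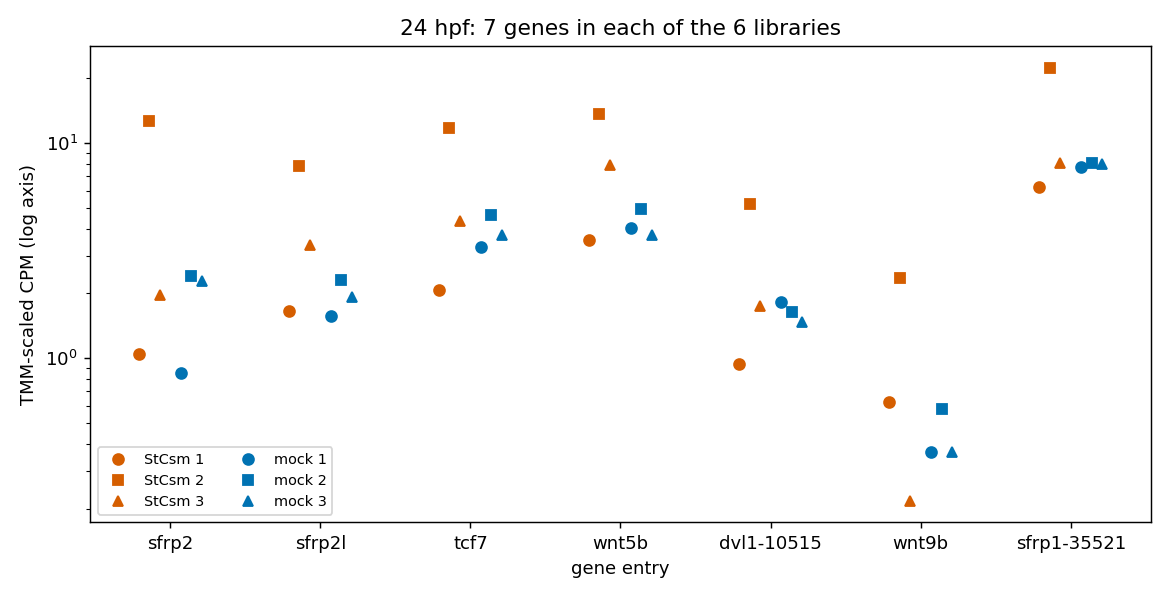
CPM on a log axis of 7 entries in each of the 6 libraries at 24 hpf, StCsm to the left of mock, with 1 symbol per replicate number. StCsm replicate 2 (square) is highest in every entry shown, for sfrp2 at 12.6 CPM against 0.850 to 2.41 CPM in the other 5 libraries.

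Whether the difference between StCsm and mock embryos itself changed with the stage was tested for each pair of stages. Between 5 hpf and the 128-cell stage 0 of 38 entries passed (0.0% of all genes), between 24 hpf and 5 hpf 0 of 55 (0.0%), and between 24 hpf and the 128-cell stage 0 of 55 (0.0823%), all in edgeR. DESeq2 also gave 0. It gave an adjusted p to only 8041 of 17590 genes in the first comparison and 1727 of 19444 in the last. Entries without one could not pass there, so its 0 in these comparisons decides nothing for them. Entries with an unadjusted p under 0.05 numbered 4, 3 and 3, beside 3.45%, 2.6% and 5.35% of all genes. The smallest of these p-values was that of sfrp5 between 24 hpf and the 128-cell stage (0.0116), which had 3 reads in StCsm and 13 reads in mock embryos at the 128-cell stage. The 10 muscle entries, which have no known role at that stage, lay at 4.57 to 11.8 CPM in StCsm and 7.38 to 39.2 CPM in mock embryos there, and their part in the sfrp5 value was not tested. The other components and the target genes gave 0 calls between injections at any stage. At the 128-cell stage 31 components and 7 targets were tested, beside 5.07% of all genes called. At 5 hpf 33 components and 15 targets were tested, and at 24 hpf 35 components and 12 targets, beside 0.0% of all genes at both stages.

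Batch was the larger difference at the 128-cell stage. In a test of the batch number beside the injection, chosen after the data had been seen, 15 of 28 entries differed between batches (adjusted p under 0.1), beside 46.8% of all genes, against 0 of 34 at 5 hpf (0.354%) and 0 of 54 at 24 hpf (0.447%). A batch is taken here as a separate injection experiment, shared by libraries of the same replicate number. The labels give only that number and name no further difference between batches. The paper ascribes strong variation of EGFP between its groups to a mix of homozygous and heterozygous fish. EGFP at the 128-cell stage was highest in batch 2, with 238 CPM in StCsm and 285 CPM in mock embryos. Whether differences between parents bear on the entries below was not tested.

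fzd8-38569 had the smallest adjusted p (0.000644), with 5.32, 1.94 and 6.33 CPM in StCsm embryos of batches 1, 2 and 3 against 5.76, 2.48 and 5.13 CPM in mock embryos. Both libraries of batch 2 lay below all others. lef1 was also lowest in batch 2, with 80.0, 60.0 and 71.8 CPM in StCsm against 80.7, 55.4 and 75.2 CPM in mock embryos (adjusted p = 0.00128). axin2 was highest there, with 79.8, 99.7 and 76.4 CPM in StCsm against 71.3, 98.7 and 77.5 CPM in mock embryos (adjusted p = 0.003).

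Some entries with few reads followed the batch as well. dkk3-03591 had 53 reads in StCsm and 48 in mock embryos of batch 2 at the 128-cell stage and at most 3 in each of the other 4 libraries. fzd9-14673 had 12 and 15 reads in batch 2 and at most 2 elsewhere. The level of dkk3-03591 in batch 2 at 5 hpf was 1.32 CPM in StCsm and 1.56 CPM in mock embryos, against at most 0.415 CPM in the other 5 hpf libraries, and at 24 hpf the batches overlapped (1.87 to 3.38 CPM over the 6 libraries). Its paralog dkk3-70683 was high in batch 1 instead, with 2.81 CPM in StCsm and 3.28 CPM in mock embryos at 24 hpf, against at most 0.523 CPM in the other 24 hpf libraries. In both dkk3 entries the high values came from the same batch in StCsm and mock embryos.

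**Figure D5:**
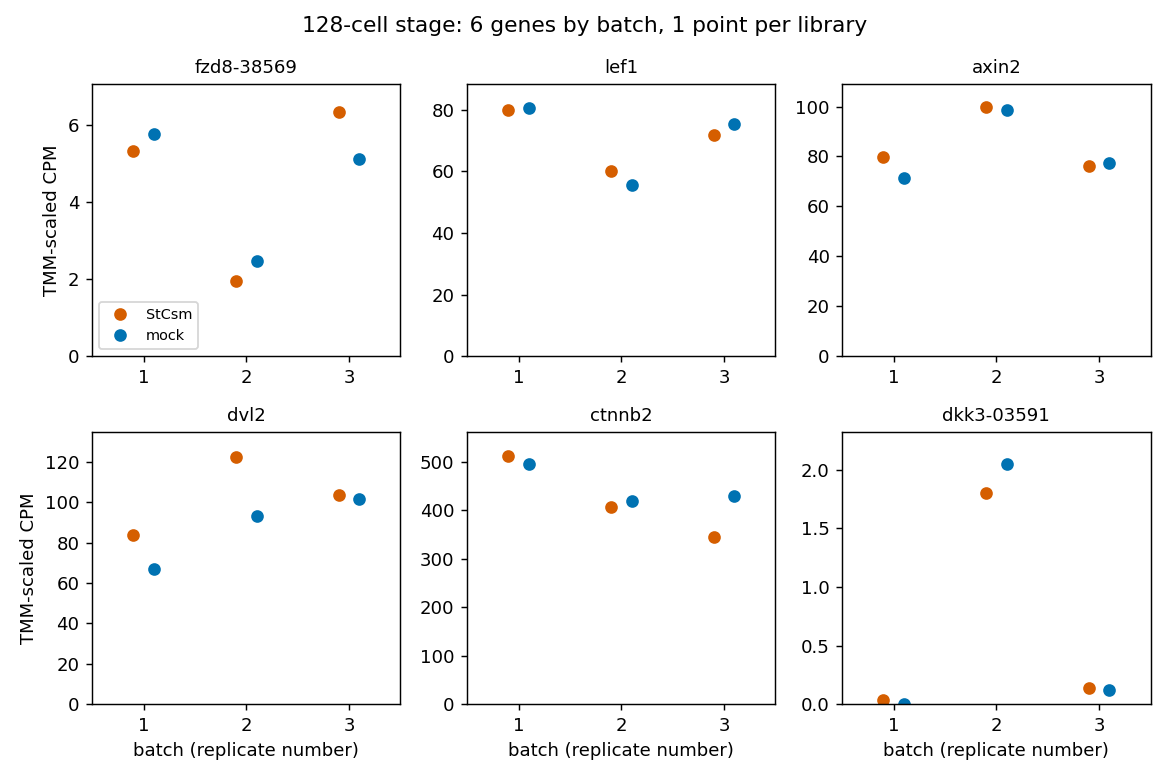
CPM of 6 entries at the 128-cell stage by batch, StCsm to the left of mock, 1 point per library, on axes that start at 0. The StCsm and mock libraries of a batch lie close together for fzd8-38569, lef1, axin2 and dkk3-03591, for dkk3-03591 at 1.80 and 2.05 CPM in batch 2 against at most 0.136 CPM in the other batches.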

How the data were processed

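For each of the 18 poly(A)-selected, paired-end libraries, the authors' raw counts of reads per gene were used as deposited. The submitters' processing notes name GRCz11, bcl2fastq 2.16.10, UMI-tools 1.0.0, cutadapt 2.4, STAR 2.7.2b, HTSeq 0.11.2, R 3.6.1 and DESeq2 1.24.0, with no role or order; the annotation release and the strand setting of the counting are not given in the sources used here. Reads of genes that overlap, such as ctnnb1 and ulk4, tcf7 and ddx46 or wnt5b and fbxl14b in RefSeq, may therefore not be separable. The authors' normalized tables were not used. The 5 rows of unassigned reads were left out (no feature: 11.1 to 17.9% of reads).

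Counts were tested with edgeR 4.0.16 in R 4.3.3 (TMM, filterByExpr, robust quasi-likelihood fit, Benjamini-Hochberg adjustment over all genes tested, adjusted p under 0.1, and 2-fold between stages). StCsm was compared with mock within each stage with the batch number as a block, stages in 1 fit of all 18 libraries with the same block, and the difference between stages in 12 libraries with a block for each batch and stage. The pairing takes libraries of the same replicate number as 1 experiment, which the labels do not state. Same-numbered libraries correlated at 0.38 to 0.57 at the 128-cell stage, 0.059 to 0.50 at 5 hpf and 0.17 to 0.39 at 24 hpf. Differently numbered ones correlated at -0.44 to -0.13, -0.52 to 0.43 and -0.29 to 0.13. At 5 hpf StCsm replicate 3 correlated with mock replicate 2 (0.43) more than with mock replicate 3 (0.059). No 2 replicates were alike within counting noise (chi-square per degree of freedom at least 9.11). Embryos of 3 crosses were mixed and split at random between the injections. With the batch block, p-values between injections measure how far the differences within the 3 batches vary. They do not measure the full spread between the 3 pools of a group, part of which the block takes up. Those between stages measure the spread left after the same block.

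Alternatives were DESeq2 1.42.0, DESeq2 size factors, library totals, no filter, at least 10 counts in every library, no block, no robust step, an adjusted p under 0.05, other sample sets and leaving out each library or batch. Folds against groups at 0 were set against 3 counts per library. Entries named with full values were those of a fixed list of core pathway genes, the entries called between injections and the 4 with the largest change in each direction between neighbouring stages of mock embryos, and others were added after their values were seen. The members and lists were chosen with earlier results of these data known.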

Additional observations from a re-analysis of the deposited data

How the results depend on the processing

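The number of Wnt pathway entries called between StCsm and mock embryos at the 128-cell stage was 1, and DESeq2 gave 1. It was 0 with an adjusted p under 0.05, 0 with all 18 libraries in 1 fit and 0 without the replicate block, 2 with at least 10 counts in every library (dvl2 and ctnnb1), and 3 with library totals and 3 with no filter on low counts (dvl2, ctnnb1 and tcf7l1). Leaving out 1 replicate number gave 0 to 1. At 5 hpf, at 24 hpf and for the differences between stages, each alternative run gave 0, the fit without the block included. The most genes called in any of these runs were 109 of 19302, between 24 hpf and the 128-cell stage without replicate 2. For DESeq2 the limit given above for the differences between stages holds.

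Between stages, requiring at least 10 counts in every library removes entries that begin near 0. It left 11 higher and 2 lower in mock embryos at 5 hpf against the 128-cell stage, 4 higher and 9 lower at 24 hpf against 5 hpf, and 8 higher and 3 lower at 24 hpf against the 128-cell stage. Of the 10767 genes tested there, 2454 were higher and 2630 lower, 2679 and 2410, and 3115 and 2969. In StCsm embryos it left 8 higher and 2 lower, 4 higher and 9 lower, and 7 higher and 5 lower in the same 3 comparisons. All genes there counted 2572 higher and 2733 lower, 2723 and 2286, and 3112 and 2927. The balance of higher and lower among the entries thus turned at 24 hpf against 5 hpf in both. Library totals gave 11 lower in mock and 12 in StCsm embryos at 5 hpf against the 128-cell stage (all genes 38.7% and 39.5%). They gave 13 lower in each at 24 hpf against the 128-cell stage (45.7% and 43.7%). With no filter, 10 were lower in mock embryos in the latest comparison with the 128-cell stage (7155 of 29502 genes). A fit of only the 2 conditions gave 17 higher in StCsm embryos at 5 hpf (4721 of 16626 genes). The cause was not tested. Leaving out libraries moved the count lower in StCsm embryos at 24 hpf against the 128-cell stage over 5 to 11, with 10 without StCsm 24 hpf replicate 2 and 11 without replicate 2 of every condition. Of all genes, 6163 of 20595 and 6051 of 20185 were lower in these last 2 fits. The block changed no stage count by over 1.5 times. Of 285 counts under an alternative, 260 lay within 1.5 times of the reported one. Of 855 values of the named genes, 826 kept their side of the threshold, 29 no longer passed and 0 changed direction.

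At 5 hpf many ligands and some other entries had fewer than 10 reads per condition, so small differences between StCsm and mock embryos were not detectable there. With 3 pools a group, a missed threshold does not show that the injections acted alike.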
